A study of Homo sapiens with 23 samples.

Results

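The vacuolar proton pump, or V-ATPase, was followed through 32 genes for its subunits and for the proteins that assemble it, chosen by gene symbol. All 32 were among the 61217 genes listed in each of 6 comparisons of a microRNA mimic with a negative control. Of the 32, 11 belong to the membrane sector V0 (RNASEK included), 12 to the catalytic sector V1, 5 are accessory proteins or assembly factors of the endoplasmic reticulum, and 4 belong to the RAVE-like complex that joins V1 to V0. ATP6V0E1, which encodes the small membrane subunit e1, was named at the outset as a target of miR-124-3p, and the question put to the data was whether the other subunits followed it. The pump genes and the tests were chosen with earlier results of these data known, so the ATP6V0E1 values below are no independent support for that naming.

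PolyA-enriched RNA was sequenced from 23 samples of 2 established cell lines labelled as squamous cell carcinoma of the cervix. C-33A is labelled HPV-negative, and CaSki is labelled HPV-positive and metastatic. In each line, the dose was 100 nM of hsa-miR-124-3p, hsa-miR-23b-3p, hsa-miR-218-5p or negative control n#1, the control throughout, and all groups were grown in DMEM high glucose with fetal bovine serum. The 8 groups held 3 samples each, except C-33A with miR-124-3p, which held 2. The labels do not say whether the samples of a group were separate cultures, so p-values rest on a spread that may be technical. The 3 comparisons of a line share its control samples.

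The data are 1 deposited table for each comparison, which lists per gene the log2 fold change, the average log2 CPM (read counts scaled to library size, over the samples compared), the p-value and the false discovery rate (FDR). Values per sample were not analysed here. Sequencing depth is therefore unknown, and neither single samples nor their overlap between groups can be shown. The words rose and fell are kept for genes whose deposited FDR was under 0.05. Standard errors (SE) and 95% intervals were recovered from the deposited fold change and p-value. With bulk RNA, a change in RNA per cell and a change in the cells that contribute cannot be told apart. All 6 epithelial markers were present in CaSki, where KRT5 averaged 12.05 to 12.08 log2 CPM over the authors' deposited tables. In C-33A, KRT5 (-2.78 to -1.68), KRT19 (-3.36 to -3.1) and CDH1 (-3.05 to -2.81) lay near the lowest log2 CPM listed in the authors' deposited tables (-3.64 to -3.6). The other 3 were low but above that floor in C-33A in the authors' deposited tables, with KRT8 at 0.63 to 0.76, KRT18 at 0.65 to 0.88 and EPCAM at -0.69 to -0.59. Of 8 stromal, blood and vessel markers, the collagen gene COL3A1 (7.11 to 7.22) and PTPRC (2.45 to 2.67) were above 0 in C-33A in the authors' deposited tables, and the other 6 were below. In C-33A, 3 of the 6 epithelial markers were thus near the floor although the line is labelled as squamous carcinoma, and the part of this in the results below was not tested.

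The pump uses ATP to move protons into lysosomes, endosomes and secretory vesicles. V1, in the cytosol, hydrolyses ATP and turns a central stalk, and the rotation drives a ring of c subunits in V0 that carries protons past subunit a. Lysosomal enzymes, receptor recycling and nutrient sensing by mTORC1 depend on the acidity it sets, and cells adjust its activity partly by joining and separating V1 and V0. A microRNA lowers a messenger RNA mainly by pairing its seed, bases 2 to 8, with sites in the 3' UTR.

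The mature sequences of 2 of the 3 mimicked microRNAs are shown with the seed in capitals, because the site searches below rest on these letters (RefSeq, GRCh38.p14). The genes lie at chr9:95085265-95085287 for miR-23b-3p, and at chr4:20528299-20528319 and chr5:168768211-168768231 for the 2 copies of miR-218-5p. No sites were searched for miR-124-3p.
miR-23b-3p: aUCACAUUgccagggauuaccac
miR-218-5p: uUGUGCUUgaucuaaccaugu
The seeds differ, so the microRNAs do not share a site family.

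ATP6V0E1 fell in both lines with miR-124-3p, and among the 32 pump genes it was the only one that did. The gene lies at chr5:172983757-173035445 on the plus strand (GRCh38, GENCODE release 29), its longest coding transcript has 1433 nt with a 3' UTR of 1083 nt, and none of its exon bases is shared with another annotated gene. In C-33A its log2 fold change in the authors' deposited table was -1.14 (SE 0.187, 95% interval -1.51 to -0.78, edgeR FDR 4.46e-06), which is 45.3% of the control level (35.1 to 58.4). In CaSki the authors' deposited table gave -1.37 (SE 0.202, interval -1.77 to -0.97, edgeR FDR 1.87e-07), or 38.7% of control (29.4 to 50.9). Its p-value ranked 14 among all listed genes in C-33A and 4 in CaSki. By size the order was different. Among genes with a mean log2 CPM of at least 0, 24 of 15466 in C-33A had a fold change as low or lower, itself included. In CaSki 305 of 15486 did. The difference between the lines, CaSki minus C-33A, was -0.23 (interval -0.77 to 0.31, adjusted p of 1 by a normal test with the edgeR-derived SEs), so the estimate was smaller than its error, and the interval allows a difference in either direction.

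With the other mimics, ATP6V0E1 did not pass the deposited FDR threshold. In C-33A the authors' deposited tables listed 0.19 (SE 0.17) with miR-23b-3p and -0.26 (SE 0.164) with miR-218-5p, both with an edgeR FDR of 1. In CaSki they listed -0.29 (SE 0.107, edgeR FDR 0.159) and -0.37 (SE 0.137, edgeR FDR 1), at unadjusted p-values of 0.00705 and 0.00719. With adjustment over genes with a mean log2 CPM of at least 0, the edgeR p of ATP6V0E1 with miR-23b-3p in CaSki became 0.045, which is past the threshold, and with the median of genes of like length subtracted its value there was -0.03. These CaSki values share the control samples with the miR-124-3p comparison. Taken against the mean of the other 2 mimics, in which the control cancels, the miR-124-3p value of ATP6V0E1 was -1.11 in C-33A and -1.04 in CaSki, with no test.

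**Figure D1:**
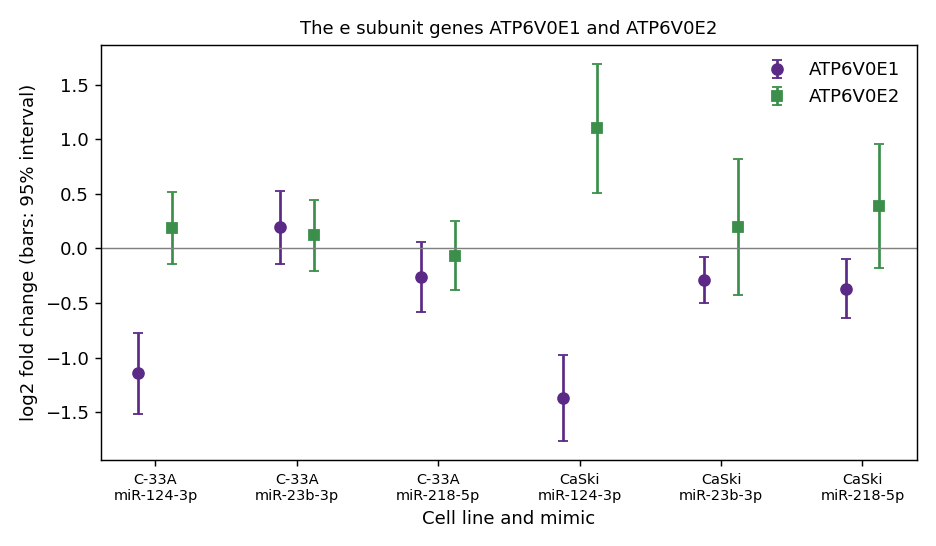
Log2 fold change of the subunit e genes ATP6V0E1 (circles) and ATP6V0E2 (squares) against the negative control of the line, for 2 lines and 3 mimics, with bars for the 95% interval recovered from the deposited p-value. ATP6V0E1 lies at -1.14 and -1.37 with miR-124-3p, and ATP6V0E2 at 1.10 in CaSki with miR-124-3p.

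ATP6V0E2, the paralogue that encodes subunit e2, moved the other way in CaSki without passing the threshold. With miR-124-3p its log2 fold change in the authors' deposited table for CaSki was 1.10 (SE 0.303, interval 0.50 to 1.69, p = 0.000294 and FDR 0.0775 by edgeR), or 214% of control (142 to 323). In C-33A the authors' deposited table listed 0.19 (SE 0.169, edgeR FDR 1), or 114% of control (90.4 to 143). The difference between lines was 0.91 (SE 0.347, interval 0.23 to 1.59), with a normal-test p of 0.00857 from the edgeR-derived SEs that became 1 after adjustment over 12970 genes. The e2 value in CaSki rests on a low level, an average of 0.92 log2 CPM in the authors' deposited table for that comparison. With adjustment over the 15486 genes at a mean log2 CPM of at least 0, the edgeR p of ATP6V0E2 in CaSki became 0.0197, which is past the threshold, and over those at 1 or more the gene was not tested. ATP6V0E2 (chr7:149872968-149891204, plus strand) shares 12.8% of its exon bases with the antisense gene ATP6V0E2-AS1, and no strand setting for the counting was given in the sources used.

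The levels of the 2 e genes differed widely between the lines. Levels are given here as average log2 CPM per kb of transcript, averaged over the 3 tables of a line, which hold mimic and control samples together, and the tables were normalised separately. In C-33A, ATP6V0E1 stood at 5.54 and ATP6V0E2 at 5.60 log2 CPM per kb from the authors' deposited tables, so e1 made 49.0% and e2 51.0% of their summed level. In CaSki the values were 6.32 and -0.84 log2 CPM per kb from the authors' deposited tables, and e1 made 99.3%. Without the miR-124-3p tables, e1 made 51.3% in C-33A and 99.4% in CaSki, so the order of the 2 genes in C-33A rests on those tables. The ATP6V0E2 level was 6.44 log2 units higher in C-33A, against a median absolute line difference of 0.64 over 12706 genes and 0.7 over the 27 pump genes measured in both lines. The gene that fell was thus nearly the whole e level in CaSki and 1 of 2 near-equal genes in C-33A.

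None of the remaining pump genes passed the threshold with miR-124-3p in either line. Of the 32, 1 fell and 0 rose with miR-124-3p in each line (edgeR FDR), against a background of 0.131% of all listed genes that fell and 0.031% that rose in C-33A, and 0.203% and 0.103% in CaSki. At an unadjusted edgeR p under 0.05 the members were 2 in C-33A (ATP6V0E1 and ATP6AP1) and 4 in CaSki (ATP6V0E1, ATP6V0E2, ATP6V0A1 and DMXL1), where 3.07% and 4.71% of all listed genes passed. Of the 61217 listed genes, only 15466 in C-33A and 15486 in CaSki had an average log2 CPM of 0 or more with miR-124-3p. Shares of all listed genes, here and below, thus include many genes lower than most pump genes. In each line 4 low pump genes had an average log2 CPM under 0 and are described with the levels, which leaves 28 in each comparison. The median of the 27 without ATP6V0E1 was -0.001 in C-33A and 0.071 in CaSki, beside -0.004 and -0.013 over all genes at that level.

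The recovered intervals give approximate bounds on the other members, since they use a normal quantile and the SEs of the lines may not rest on the same model. In C-33A, with 2 miR-124-3p samples, the SEs of the 28 pump genes had a minimum of 0.167 and a median of 0.179. How far these carry the spread of each single gene was not tested. In C-33A, the lowest of the 27 was ATP6V1B1 at -0.63 in the authors' deposited table (interval -1.53 to 0.27), a V1 subunit B paralogue at an average of only 0.48 log2 CPM over the tables of that line, and the highest was ROGDI at 0.42. For 25 of the 27 the 95% interval lay wholly above the ATP6V0E1 value of -1.14, the exceptions being ATP6V1B1 and ATP6V1C2. For 22 it also lay above -0.57, the midpoint between it and 0. In CaSki the lowest was RNASEK at -0.35 in the authors' deposited table (interval -0.83 to 0.12), and all 27 intervals lay above -1.37. There, 25 lay above -0.69, the exceptions being TMEM199 and RNASEK. A smaller fall shared by the members was not tested.

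**Figure D2:**
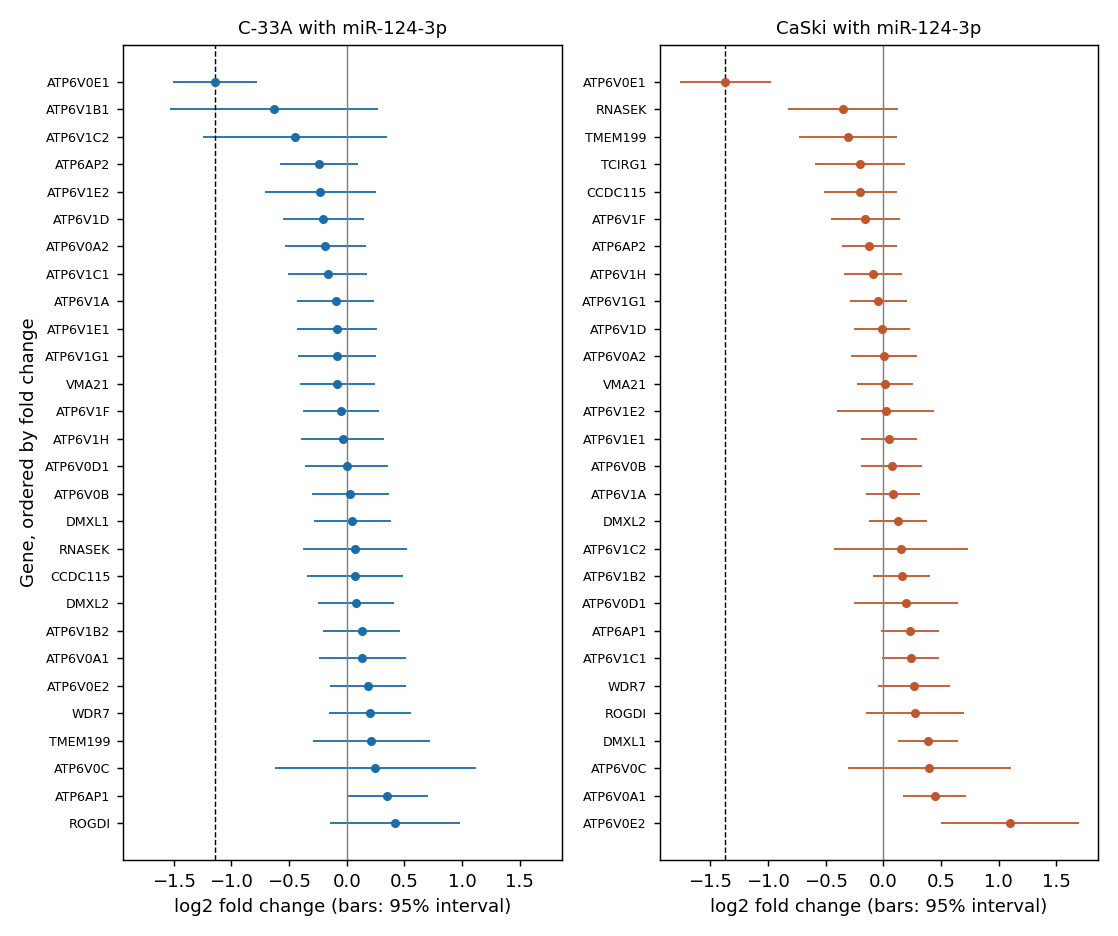
Log2 fold change with miR-124-3p for the 28 pump genes with a mean log2 CPM of at least 0 in C-33A (left) and CaSki (right), ordered by value, with bars for the recovered 95% interval and a dashed line at the ATP6V0E1 value. In CaSki, no interval of the other 27 reaches the dashed line at -1.37, and in C-33A those of ATP6V1B1 and ATP6V1C2 do.

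Within V0, the a subunits anchor V1 and form the proton path together with the c ring. ATP6V0A1, the a1 isoform, had the third lowest p among members in CaSki with miR-124-3p, with a log2 fold change of 0.44 in the authors' deposited table (SE 0.14, interval 0.17 to 0.72, edgeR FDR 0.226). In C-33A it stood at 0.14. In CaSki it was also above 0 with miR-23b-3p (0.32) and miR-218-5p (0.19) in the authors' deposited tables, against the same controls. Set against the mean of those 2 mimics, its miR-124-3p value in CaSki became 0.19, with no test. ATP6V0A2, whose a2 isoform works mainly in the Golgi and early endosomes, lay at -0.19 in C-33A and 0.01 in CaSki in the authors' deposited tables. ATP6V0B, a ring subunit, was at 0.03 and 0.07, and ATP6V0D1, which couples the ring to the stalk, at 0.00 and 0.20 in the authors' deposited tables. None of these V0 genes other than ATP6V0E1 passed the threshold.

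Within V1, which holds the catalytic subunit A, subunit B, the stator subunits C, E, G and H and the rotor subunits D and F, no gene passed with miR-124-3p in either line. In C-33A, 10 of 11 measured V1 genes had values below 0, with a median of -0.096, where 50.8% of all genes did. With the median of genes of like transcript length subtracted, 6 of the 11 were below 0, with a median of -0.144. In CaSki, 4 of 10 were below 0, with a median of 0.036, where 52.0% of all genes were. The same subtraction put all 10 above 0 there, with a median of 0.158. ATP6V1A, the catalytic subunit, was at -0.10 in C-33A and 0.08 in CaSki in the authors' deposited tables.

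The 4 RAVE-like genes lay above 0 in both lines with miR-124-3p, with a median of 0.142 in C-33A and 0.269 in CaSki, and none passed. Of all genes, 49.2% lay above 0 in C-33A and 48.0% in CaSki. All 4 also lay above 0 in CaSki with miR-218-5p, against the same controls, with a median of 0.033, where 51.6% of all genes did. With miR-23b-3p, 1 of the 4 did in CaSki. In C-33A, 2 did with miR-218-5p and 1 with miR-23b-3p. DMXL1, a large scaffold of the complex, was at 0.38 in the authors' deposited table for CaSki (SE 0.133, interval 0.12 to 0.64, p = 0.00383 and FDR 0.367 by edgeR) and at 0.05 in C-33A. ROGDI, a further component, was at 0.42 in the authors' deposited table for C-33A (SE 0.287, interval -0.15 to 0.98, edgeR FDR 1) and at 0.27 in CaSki. The DMXL1 transcript has 11236 nt, and longer transcripts had higher fold changes in CaSki with miR-124-3p (Spearman rho 0.372 across 11993 genes, which are not independent). With the median of genes of like length subtracted, 3 of the 4 were above 0 in each line, with medians of 0.075 and 0.157. DMXL1 then stood at 0.22 in CaSki and -0.02 in C-33A, and its relative DMXL2 at -0.04 in CaSki and 0.01 in C-33A.

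Among accessory genes, ATP6AP1, which encodes the Ac45 protein that assists V0 assembly and sorting, was at 0.35 in the authors' deposited table for C-33A with miR-124-3p (SE 0.179, interval 0.00 to 0.70, p = 0.0487 and FDR 1 by edgeR). It was at 0.33 there with miR-23b-3p (SE 0.173, edgeR FDR 1) in the authors' deposited table, a comparison with the same controls. Set against the mean of the other mimics, these became 0.14 and 0.10. ATP6AP2, the prorenin receptor that binds the pump, was at -0.24 with miR-124-3p (SE 0.174) and -0.19 with miR-23b-3p (SE 0.168) in C-33A in the authors' deposited tables, with an edgeR FDR of 1 in both. The endoplasmic reticulum factors VMA21, TMEM199 and CCDC115 ranged from -0.31 to 0.21 over both lines with miR-124-3p, and none passed.

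With miR-23b-3p, 3 pump genes fell in CaSki and none rose, and none of the 32 passed in C-33A. The background in CaSki was 0.995% of all listed genes that fell and 1.41% that rose, and falls made 3.84% of those at a mean log2 CPM of at least 0, beside 3 of the 28 pump genes at that level. At an unadjusted edgeR p under 0.05 there were 9 of 32 members, 7 below 0 and 2 above (ATP6V0A1 and ATP6V0C), where 9.85% of all listed genes passed. The 9 include ATP6V1G2, which lay under a mean log2 CPM of 0. Only 15476 of the 61217 listed genes were at 0 or more, and the unadjusted share among them was not counted. The 9 of 32 and the 9.85% are therefore not matched by level. ATP6V1F encodes the V1 rotor subunit F (chr7:128862826-128865844, plus strand). It was at -0.51 in the authors' deposited table (SE 0.122, interval -0.75 to -0.28, edgeR FDR 0.0031), or 70.0% of control (59.4 to 82.6). ATP6V1E1 encodes the stator subunit E1 (chr22:17592136-17628818, minus strand). It was at -0.42 in the authors' deposited table (SE 0.112, interval -0.64 to -0.20, edgeR FDR 0.0136), or 74.9% of control (64.4 to 87.2). RNASEK encodes ribonuclease kappa, a small membrane protein found in V0 (chr17:7012417-7014532, plus strand). It was at -0.65 in the authors' deposited table (SE 0.194, interval -1.03 to -0.27, edgeR FDR 0.0368), or 63.6% of control (48.9 to 82.8), and it shares 36.9% of its exon bases with the readthrough gene RNASEK-C17orf49. RNASEK was also at -0.35 with miR-124-3p and -0.37 with miR-218-5p against the same controls in the authors' deposited tables for CaSki. Against the mean of those 2 mimics it was at -0.29, beside -0.38 for ATP6V1F and -0.42 for ATP6V1E1, with no test.

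All 3 have short transcripts, and short transcripts were lower across the whole CaSki miR-23b-3p comparison. Their longest coding transcripts have 711 nt (ATP6V1F), 810 nt (RNASEK) and 1402 nt (ATP6V1E1). Across 11998 genes the Spearman rho of fold change with transcript length was 0.463, and across the 28 pump genes it was 0.477, as a description without a test. Genes under 2000 nt had a median of -0.263 and longer genes 0.038, beside -0.239 for 12 short and -0.006 for 16 long pump genes. With the median of genes of like length subtracted, the 3 genes stood at -0.14 (ATP6V1F, adjusted p 0.522 from edgeR-derived SEs), -0.28 (RNASEK, 0.397) and -0.16 (ATP6V1E1, 0.39), so none was still past the threshold. After that subtraction 2 other genes passed, ATP6V0C at 1.25 (adjusted p 0.0268) and DMXL2 at -0.41 (0.0188), by the same edgeR-derived test. In C-33A with miR-23b-3p the rho across all genes was -0.111 and across pump genes -0.4. What underlies the relation with length was not tested.

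**Figure D3:**
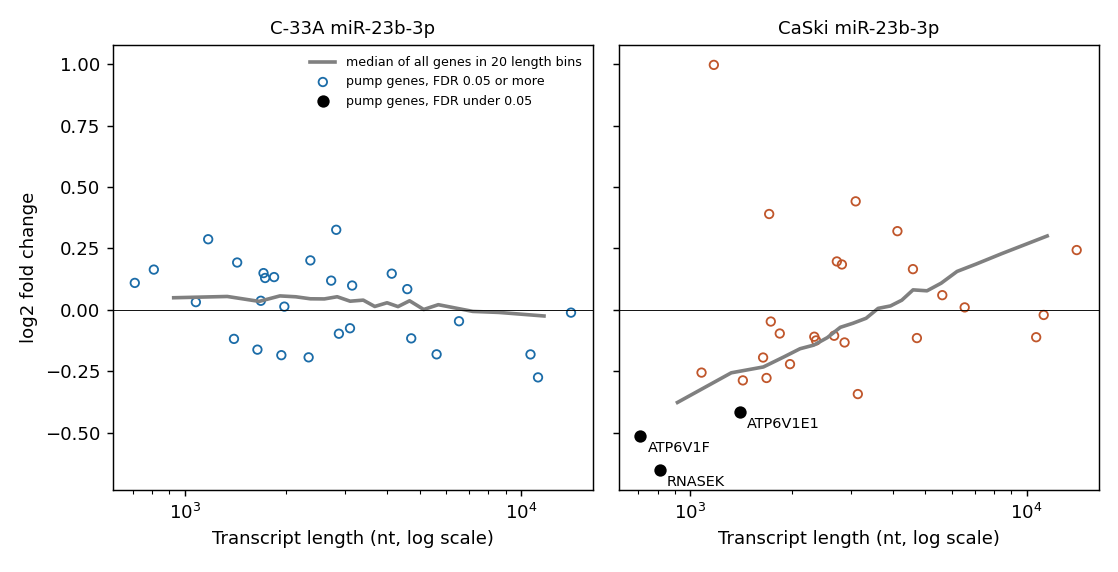
Log2 fold change with miR-23b-3p against transcript length (nt, log scale) for the 28 pump genes measured in C-33A (left) and CaSki (right), with the median of all genes in 20 length bins as a line. In CaSki the line climbs from negative values for short transcripts to positive values for long ones, and the filled points ATP6V1F, RNASEK and ATP6V1E1 are among the shortest pump genes.

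ATP6V0C, the main c subunit of the proton-carrying ring, had a high value and a large error in CaSki with miR-23b-3p. Its log2 fold change in the authors' deposited table was 1.00 (SE 0.406, interval 0.20 to 1.79, p = 0.0141 and FDR 0.246 by edgeR). Its level was low for a core subunit, at 0.37 log2 CPM in C-33A and 0.52 in CaSki from the authors' deposited tables. The annotation has 72.1% of its exon bases on the same strand within 2 other protein coding genes, both listed near the lowest level, and the part of this overlap in the low level was not tested. The values of ATP6V0C are therefore uncertain in every comparison.

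The fall of the 3 genes in CaSki was not shown to differ from C-33A after adjustment. The line difference, CaSki minus C-33A, with miR-23b-3p was -0.62 for ATP6V1F (interval -1.03 to -0.22, adjusted p = 0.0798), by a normal test with the edgeR-derived SEs. With SEs taken from the square root of the deposited F, ATP6V1F passed this test. For RNASEK it was -0.82 (interval -1.38 to -0.25, adjusted p = 0.104) and for ATP6V1E1 -0.30 (interval -0.70 to 0.10, adjusted p = 0.498) by that edgeR-derived test. The ATP6V0E1 difference was -0.48 (interval -0.87 to -0.09, adjusted p = 0.2) by that edgeR-derived test. Over 12905 genes, 15.6% had an unadjusted p under 0.05 in this test and 1.7% an adjusted one, beside 3 and 0 of 27 pump genes. With the median of genes of like length subtracted, 0 pump genes passed. Fold change ran with length in opposite directions in the 2 lines (Spearman rho 0.463 in CaSki and -0.111 in C-33A). The part of this in the line differences was not tested. With miR-124-3p, 1 of the 27 (ATP6V0E2) had an unadjusted p under 0.05 and 0 passed, where 2.51% of 12970 genes had one and 0% passed. With miR-218-5p both counts were 0 of 27, where 1.56% of 12902 genes had an unadjusted p under 0.05 and 0% passed.

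In C-33A with miR-23b-3p, 0 of 32 pump genes passed the edgeR FDR and 0 had an unadjusted p under 0.05, against 0.0474% and 1.97% of all listed genes. After ATP6AP1, the members with the lowest p in the authors' deposited table were DMXL1 at -0.28 (SE 0.168), ATP6AP2 at -0.19 and ATP6V1H, the regulatory subunit H, at 0.20 (SE 0.175), each with an edgeR FDR of 1.

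Seed matches for miR-23b-3p (AATGTGA, plus strand of the transcript) lay in the 3' UTR of the longest coding transcript of 6 of 32 pump genes, or 18.8%, beside 18.1% of 19001 genes. The 6 are ATP6V0E2, ATP6V1B2, ATP6V1C1, ATP6V1E1, DMXL1 and WDR7. Of the 3 genes that fell in CaSki, ATP6V1E1 has matches and ATP6V1F and RNASEK have none in these windows. Windows are shown for ATP6V1E1 as that gene, for DMXL1, which holds a match followed by an A, and for the e paralogue ATP6V0E2. ATP6V1C1 and WDR7 also hold a match followed by an A, and their windows are not shown. Capitals mark the match. The ATP6V1E1 matches are at chr22:17592220-17592226 and chr22:17592159-17592165, minus strand, and the DMXL1 match is at chr5:119248229-119248235, plus strand (all GRCh38).
ATP6V1E1, first match: cctcatctgtaAATGTGAtttaaaatct
ATP6V1E1, second match: tatgcggatttAATGTGAtttctagtgt
DMXL1: tttcagaaacaAATGTGAaagcagtcaa
ATP6V0E2: ggggaaggggcAATGTGAgtggcgctat
With miR-23b-3p, DMXL1 was at -0.28 in C-33A and -0.02 in CaSki in the authors' deposited tables, and ATP6V0E2 at 0.12 and 0.20 in the authors' deposited tables. ATP6V1B2 was at -0.10 in C-33A and -0.13 in CaSki, ATP6V1C1 at -0.18 and 0.06, and WDR7 at -0.01 and 0.24. ATP6V1E1 was at -0.12 in C-33A. Of the 6 genes with a match, ATP6V0E2 alone was thus above 0 in C-33A, where 47.6% of all genes lay below 0. In CaSki the 6 had values on both sides of 0. Neither pattern was tested. A match is a description of the letters and not of binding.

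With miR-218-5p no pump gene passed in either line. The edgeR FDR was met by 0 of 32 in both, where 0.0751% of all listed genes passed in C-33A and 0.0245% in CaSki. At an unadjusted edgeR p under 0.05 the members were 0 in C-33A and 3 in CaSki (ATP6V0E1 and VMA21 below 0, ATP6V1A above), where 2.27% and 2.54% of all listed genes passed. VMA21, which guides V0 assembly in the endoplasmic reticulum, had similar values in both lines, -0.27 in C-33A (SE 0.162, interval -0.58 to 0.05) and -0.26 in CaSki (SE 0.123, interval -0.50 to -0.02) in the authors' deposited tables, with an edgeR FDR of 1 in both. ATP6V1A was at 0.25 in CaSki (SE 0.118, interval 0.01 to 0.48, edgeR FDR 1) in the authors' deposited table. ATP6V1G1, a stator subunit, and DMXL1 stood at -0.27 (SE 0.162) and -0.26 (SE 0.163) in C-33A, and RNASEK at -0.37 (SE 0.247) in CaSki, in the authors' deposited tables, each with an edgeR FDR of 1.

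The seed match of miR-218-5p (AAGCACA) was found in 3 of 32 pump genes, or 9.38%, beside 13.7% of 19001 genes. The genes are ATP6V0A1, VMA21 and WDR7. The VMA21 window is shown because that gene was among those with the lowest p in both lines, beside the ATP6V0A1 window for contrast. The matches lie at chrX:151406701-151406707 and chr17:42521903-42521909, both on the plus strand.
VMA21: attttctaaatAAGCACAttctatcttt
ATP6V0A1: gccctgcccacAAGCACAccctcaggcc
With miR-218-5p, ATP6V0A1 was at 0.25 in C-33A (SE 0.172) and 0.19 in CaSki (SE 0.132) in the authors' deposited tables. The 2 genes with these windows had values of opposite sign, and neither passed. Since the ATP6V0A1 window was chosen for contrast, the signs describe these 2 genes only. WDR7, whose window is not shown, alone holds a match followed by an A, and it was at 0.00 in C-33A and 0.02 in CaSki.

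**Figure D4:**
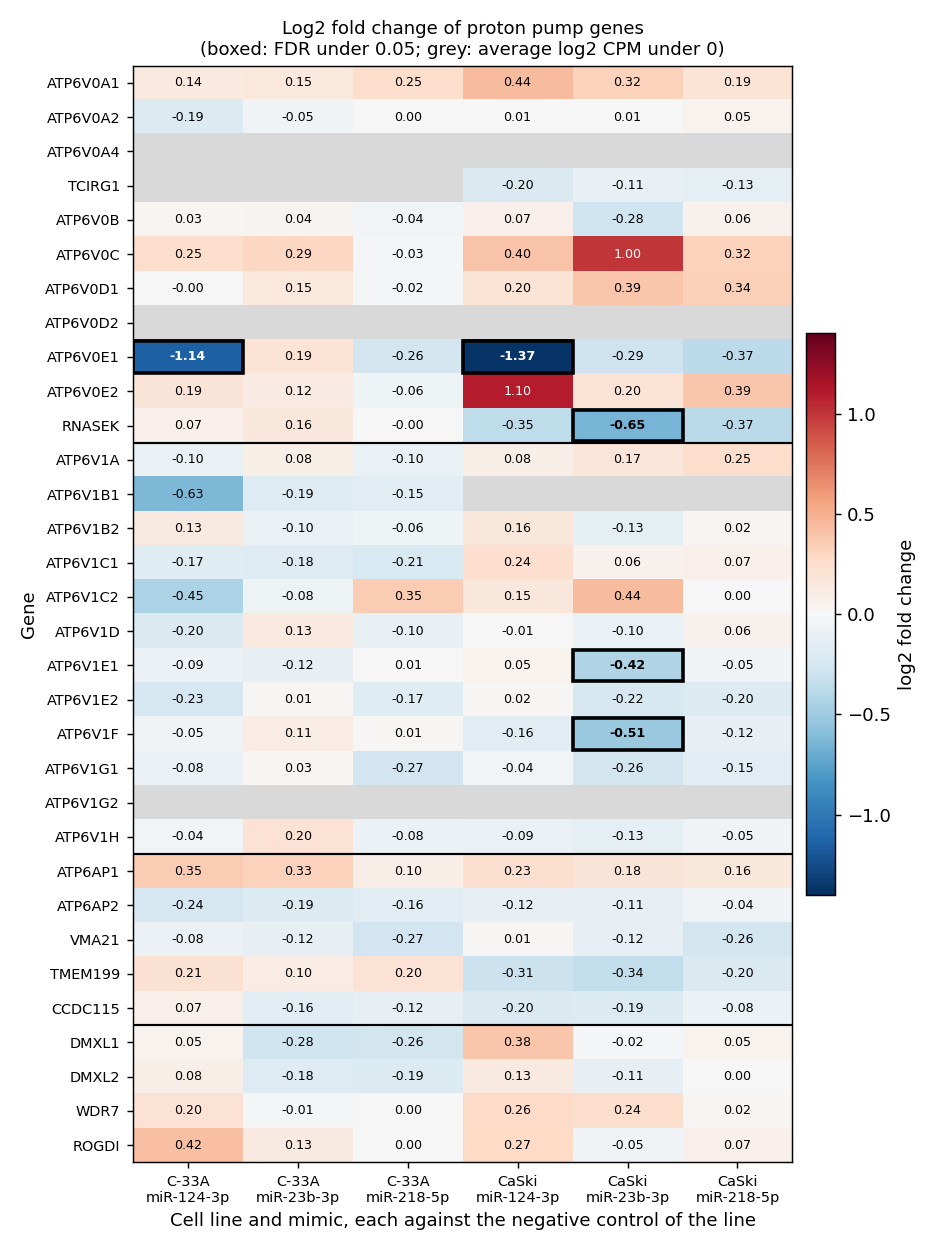
Log2 fold change of the pump genes (rows, grouped into V0, V1, accessory and RAVE-like genes by lines) in the 6 comparisons (columns), with a box where the deposited FDR is under 0.05 and grey where the average log2 CPM is under 0. The boxes hold ATP6V0E1 with miR-124-3p in both lines, and RNASEK, ATP6V1E1 and ATP6V1F in CaSki with miR-23b-3p.

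The medians of the pump genes lay on both sides of 0 in each line. In C-33A the median over the 28 measured members was -0.018 with miR-124-3p, 0.034 with miR-23b-3p and -0.064 with miR-218-5p, beside -0.004, 0.012 and -0.038 over all genes at that level. In CaSki it was 0.061, -0.108 and 0.01, beside -0.013, 0.0 and 0.008. After the subtraction by length, the CaSki median became 0.13 with miR-124-3p and -0.031 with miR-23b-3p, and against the other mimics 0.146 and -0.073. The medians carry no test.

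By level, the 2 lines used the same main isoform for most subunits. Per kb of transcript, ATP6V1F was the highest pump gene in both lines (7.96 log2 CPM per kb in C-33A and 6.89 in CaSki from the authors' deposited tables), followed by ATP6V1G1 (6.63 and 6.56 there). Of the paralogues, the ubiquitous form made most of the summed level per kb in both lines for subunit B (ATP6V1B2, 98.1% in C-33A and 98.8% in CaSki), C (ATP6V1C1, 96.2% and 98.4%), E (ATP6V1E1, 90.1% and 96.3%), G (ATP6V1G1, 99.9% in both) and d (ATP6V0D1, 99.9% and 99.7%). The kidney, bone and neuronal forms ATP6V0A4, ATP6V0D2 and ATP6V1G2 averaged under 0 log2 CPM in both lines. ATP6V1B1, the kidney form of B, averaged under 0 in CaSki only, and shares 62.4% of its exon bases with VAX2.

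Beside subunit e, the a subunits differed most in their makeup. ATP6V0A1 made 46.1% of the summed a level per kb in C-33A and 49.9% in CaSki. ATP6V0A2 made 52.2% and 22.9%, and TCIRG1, the a3 form known from osteoclasts and lysosomes, 1.49% and 26.5%. The TCIRG1 level in C-33A minus that in CaSki was -4.18 log2 units, at -1.77 log2 CPM per kb against 2.41 from the authors' deposited tables. Among the assembly factors, DMXL2 was 1.53 and WDR7 1.16 log2 units higher in C-33A. Since there is 1 culture line of each kind and the tables were normalised separately, these differences carry no test. The 18 listed pseudogenes of pump genes reached at most -0.43 log2 CPM in C-33A and -1.36 in CaSki in the authors' deposited tables.

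**Figure D5:**
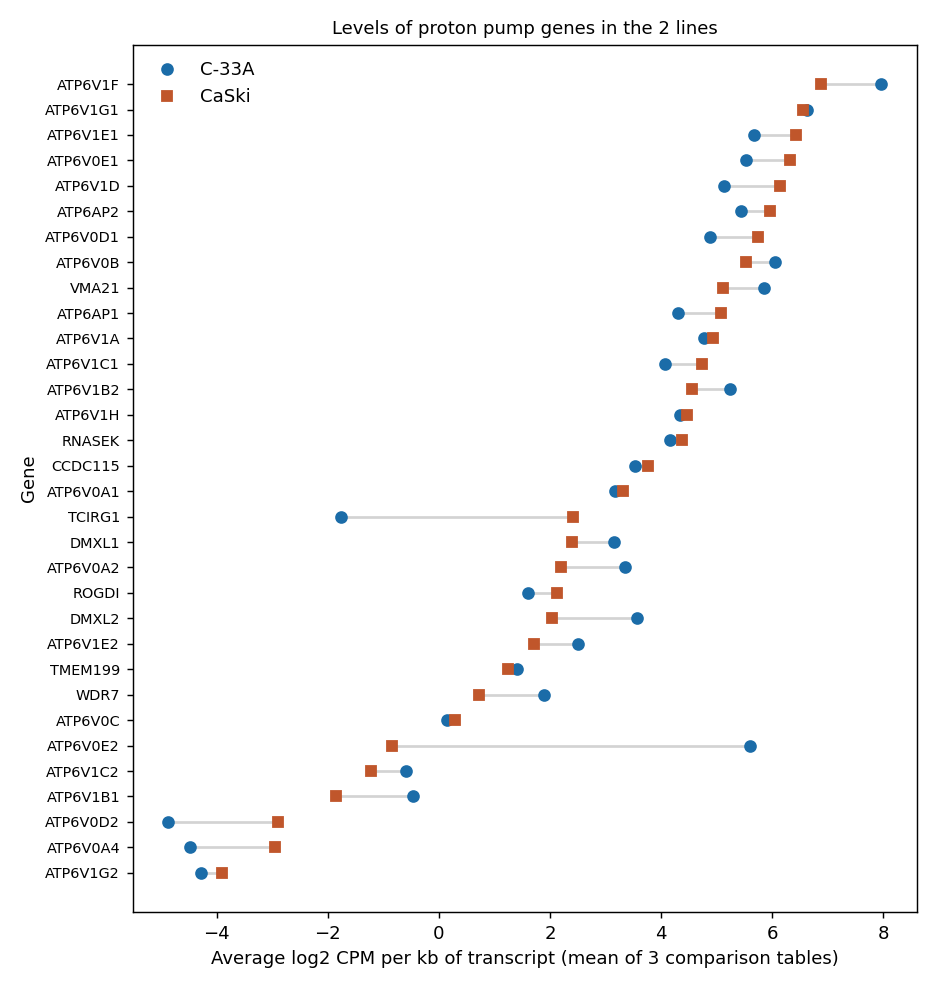
Average log2 CPM per kb of transcript (mean of the 3 tables of a line) for the 32 pump genes, with circles for C-33A and squares for CaSki, ordered by the CaSki level. ATP6V0E2 (5.60 and -0.84) and TCIRG1 (-1.77 and 2.41) have the longest lines between the cell lines.

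Genes that act with the pump were counted from lists made for this purpose. Of 15 lysosomal ion channels and exchangers, which carry the counter-ions of acidification, 0 passed the edgeR FDR in any comparison. Of the 15, 14 in C-33A and 13 in CaSki had a mean log2 CPM of at least 0. With miR-124-3p the median of these was 0.192 in C-33A and 0.24 in CaSki, beside -0.004 and -0.013 over all genes at that level. Longer transcripts had higher fold changes in both comparisons (Spearman rho 0.22 and 0.372), and these list medians were not corrected for length. Of the channel and exchanger genes at that level, 1 in C-33A and 6 in CaSki had an unadjusted p under 0.05. Over all listed genes, which include those under that level, 3.07% and 4.71% did, and the share at that level was not counted. Of 4 genes of the TFEB family, the transcription factors that drive lysosomal genes, 0 passed in any comparison. At most 1 of those at that level, 2 in C-33A and 3 in CaSki, had an unadjusted p under 0.05. The 9 TLDc and other pump-associated genes gave 0 calls, with at most 2 of the 6 at that level at an unadjusted p under 0.05. Over the 6 comparisons, 1.97% to 9.85% of all listed genes, at any level, had such an unadjusted p.

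Calls in the related lists came from CaSki with miR-23b-3p alone, where the background was 2.4% of all listed genes in either direction. Of 13 genes of the Ragulator and Rag GTPase group, which tether mTORC1 to the lysosome and bind the pump, 2 fell, LAMTOR1 at -0.60 (SE 0.128, edgeR FDR 0.000704) and LAMTOR2 at -0.49 (SE 0.143, edgeR FDR 0.0346) in the authors' deposited table. Of 30 lysosomal hydrolases and activators, the protease gene CTSL fell by 0.44 (SE 0.121, edgeR FDR 0.0185) and the peptidase gene TPP1 rose by 0.90 (SE 0.217, edgeR FDR 0.00405) in the authors' deposited table. Subtraction by length left TPP1 past the threshold at 0.89 (adjusted p 0.00199 from the edgeR-derived SE) and took LAMTOR1 to -0.34 (0.0658), LAMTOR2 to -0.11 (0.689) and CTSL to -0.28 (0.123).

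Markers were counted in the same way. Of 6 epithelial markers, 2 keratin genes fell in CaSki with miR-23b-3p, KRT8 at -0.58 (SE 0.12, edgeR FDR 0.000355) and KRT19 at -0.44 (SE 0.108, edgeR FDR 0.00536) in the authors' deposited table, where 0.995% of all listed genes fell, and 0 passed in the other comparisons. After the subtraction by length, KRT8 was still past the threshold at -0.47 (adjusted p 0.0036 from the edgeR-derived SE) and KRT19 was not (-0.18, 0.297). Of 8 stromal, blood and vessel markers, 0 passed in any comparison. In CaSki only COL1A1 of the 8 was above 0, at 1.71 to 1.89 log2 CPM in the authors' deposited tables. The unadjusted edgeR p was counted only for markers with a mean log2 CPM of at least 0, which were 2 in C-33A and 1 in CaSki. At most 1 had such a p under 0.05, which was COL1A1 in CaSki with miR-124-3p, at 0.61. The part of the keratin genes' change in the pump results was not tested.

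The mitochondrial ATP synthase, a rotary enzyme of related build that makes ATP, served as a comparison. Of its 18 genes, 5 fell in CaSki with miR-23b-3p, from -0.40 (ATP5MC2) to -0.67 (ATP5MF, edgeR FDR 9.2e-05) in the authors' deposited table, and none did elsewhere. There, 0.995% of all listed genes fell, and 3.84% of those with a mean log2 CPM of at least 0. None of the 5 was past the threshold after subtraction by length, with values from -0.29 to -0.06. The ATP synthase median was -0.284 in that comparison beside -0.108 for the pump genes, and their difference was not tested.

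The promoters of 22 pump genes were at hand (RefSeq, GRCh38.p14, from 250 bases before to 50 after the start, 31 promoters in all). The letters CACGTG, the E-box core that TFEB binds and which reads the same on both strands, occurred in 5 of the 31, or 16.1%, beside 7.26% of 35116 promoters. The longer TCACGTGA, which contains it, occurred in 2, or 6.45%, beside 0.98%. The 5 promoters belong to ATP6V0B, ATP6V0D1, ATP6V0E2 and ATP6V1G1. ATP6V0E2 enters with overlapping promoters that hold the same site, so that site is counted more than once in the 16.1%. By gene, CACGTG was in 4 of the 22, and the share by gene over all promoters was not counted. Windows of 30 bases of the 2 genes with the longer motif are shown, with CACGTG in capitals, at chr16:67481199-67481228 (minus strand) and chr9:114587699-114587728 (plus strand).
ATP6V0D1: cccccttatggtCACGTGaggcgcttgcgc
ATP6V1G1: acgctgtgcggtCACGTGacaacgggggcg
Neither gene passed the threshold in any comparison, and ATP6V0D1 ranged from -0.02 to 0.39 and ATP6V1G1 from -0.27 to 0.03 over the 6 authors' deposited tables. The motif counts are descriptions with no test.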

How the data were processed

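GRCh38 was the build, and the tools were STAR 2.7.10b, featureCounts 2.0.3, FastQC 0.73 and edgeR 3.36.0, per the submitters' processing notes. Per the file headers, the values in the 6 deposited tables are, for each of 61217 genes, the p-value, its FDR, the F score, the log2 fold change and the average log2 CPM. The deposited FDR is the Benjamini-Hochberg adjustment of the deposited p-value over all listed genes. A fit to counts was foreseen for values per sample; since the tables hold none, the authors' deposited statistics were used instead. No column of per-sample values was left unmapped.

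The SE is the log2 fold change over the normal quantile of the p-value, and the 95% interval uses it. For the pump genes, C-33A p-values equal the chi-square tail of the deposited F score, and CaSki p-values do not, so the SEs of the lines may not rest on the same model; the setting behind this is not given in the sources. Lines were compared by a two-sided normal test of the difference of fold changes, adjusted over genes with a mean log2 CPM of at least 0 in both. Length and 3' UTR came from the longest coding transcript of GENCODE release 29, which gave a length for 19606 listed genes and all 32 pump genes. For length, the median of 20 equal bins was subtracted. Scripts ran in Python 3.11.15 with pandas 2.3.3, numpy 2.4.6, scipy 1.17.1 and matplotlib 3.10.9, and were tested on simulated data.

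The pump genes, the other lists and the tests were chosen with earlier results of these data known. Full values are given for ATP6V0E1, for every called pump gene and for the 4 measured pump genes with the lowest p in each comparison, with paralogues by level and called genes of the other lists. Other values were chosen after they were seen. A gene of the hydrolase list is not reported here and was left out of its counts. Alternatives changed the threshold, the genes adjusted over, length, the reference group, the SE and the site definition.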

Additional observations from a re-analysis of the deposited data

How the results depend on the processing

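Leaving out single samples was not possible without values per sample. No paired analysis was possible because the tables hold no values per sample, although replicate numbers recur across groups. Site counts for miR-124-3p were not run. The count of pump genes called in CaSki with miR-124-3p went from 1 to 2, with ATP6V0E2 added, at an FDR threshold of 0.10, with adjustment over genes at a mean log2 CPM of at least 0 (0.0197) and with the length median subtracted (1.16, adjusted p 0.0114). It was 1 with adjustment over genes at 1 or more. In the other comparisons the count was within 1.5 times of the reported one, but in CaSki with miR-23b-3p the 2 genes called after the subtraction by length (ATP6V0C and DMXL2) were not among the 3 reported. There, adjustment over genes at 0 or more, or at 1 or more, gave 4 genes, with ATP6V0E1 added (0.045 at 0 or more). ATP6V0E1 kept its call with miR-124-3p in both lines under each alternative with a test, and its adjusted p ranged up to 2.04e-05. The count that differed between lines with miR-23b-3p went from 0 to 1 (ATP6V1F) with the SE taken from the square root of F. It was 0 with the length median subtracted. Sites followed by an A were in 3 pump genes for miR-23b-3p and 1 for miR-218-5p, and 6-base matches in 10 and 11, by construction. No value changed sign past a threshold. The cause of the other changes was not tested. With depth unknown, low genes such as ATP6V0E2 in CaSki are limited by their recovered error only.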
